A study of Drosophila melanogaster with 78 samples.

Results

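Whole embryos labelled as comm mutant were compared with wild-type (WT) embryos at stage 15 of Drosophila melanogaster embryogenesis. The comparison takes the 4 arrays whose titles name the comm mutant and the 5 whose titles name WT, out of 78 Affymetrix arrays in 18 groups. The labels give no allele, chromosome, balancer or strain for the comm or WT embryos, and they do not say how mutant embryos were picked. A further 4 arrays are labelled comm/WT, a name that the labels do not explain, and they serve as a second comparison. The 16 groups other than comm and WT, 69 arrays of axon guidance mutants and transgenics including comm/WT, give one more comparison. It takes the equal-weight average of those 16 groups, so a difference from the other groups does not place comm outside each of them. In it the WT arrays are not in the contrast, though like all 78 they enter the estimate of the spread.

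The commissureless gene (comm) encodes a membrane protein of the midline guidance system. Slit, secreted by midline glia and neurons, repels growth cones that carry Robo receptors, and Comm sorts newly made Robo away from the growth cone so that commissural axons can cross. Embryos without comm function are known for a nerve cord that lacks commissures, while the longitudinal tracts form. Stage 15 is a time when most central axon tracts are laid down, muscles are attached and the epidermis is making its first cuticle.

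Values are log2 intensities of probe sets, and a change is a difference of group means on that scale with its standard error. Calls are adjusted p-values under 0.05 from limma, adjusted over all 13966 probe sets. Titles call the replicates biological, the descriptions call them technical, and nothing says that arrays came from separate collections, so the p-values may measure technical spread only. In whole embryos, fewer cells of a type and less RNA per cell cannot be told apart.

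Some arrays stand apart, and the values bear on the results below. The 3'-to-5' difference of the actin control, a measure of RNA or labelling quality, was 1.30 to 1.58 in the comm arrays and 0.34 to 1.06 in the WT arrays, and the GAPDH and eIF-4a controls did not overlap between the groups either. WT replicate 1 had the lowest actin difference (0.34) and the lowest SD of log2 intensity (1.659, against 1.702 to 1.754 in the other WT arrays and 1.741 to 1.762 in comm). In that array 24 probe sets lay at least 1 log2 unit above and 54 at least 1 unit below all other WT arrays, against at most 2 in any other WT or comm array. The comm arrays were alike, with a median SD over probe sets of 0.0677, against 0.1345 in WT and 0.101 in WT without replicate 1. In comm/WT, replicates 1 and 2 had GAPDH differences of 2.80 and 2.75, and replicates 3 and 4 had 1.81 and 1.78. The part of these differences in the results was not tested beyond the values given with each result.

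**Figure D1:**
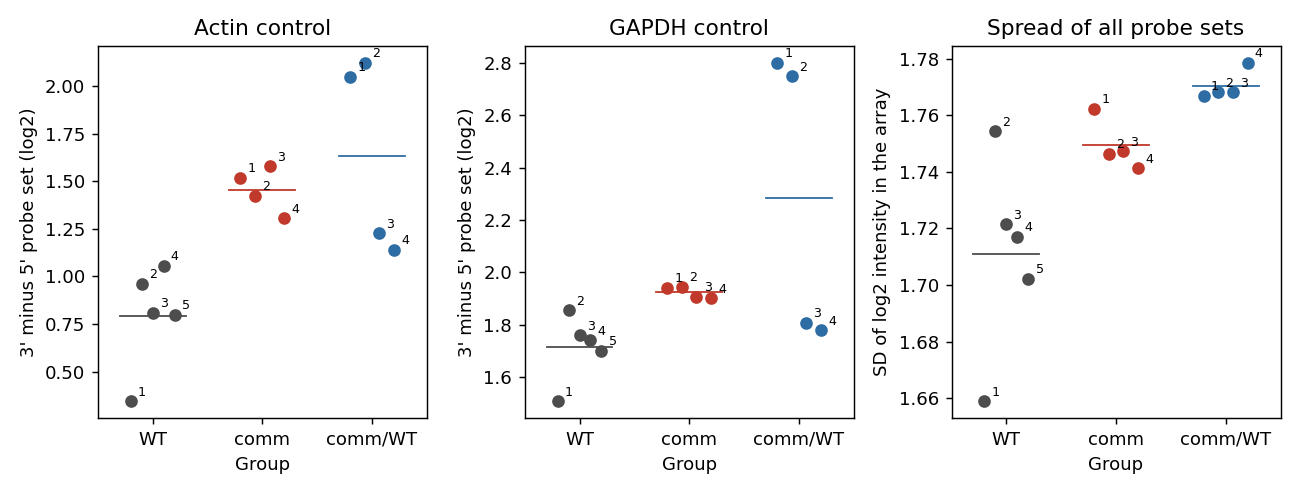
3'-to-5' differences of the actin and GAPDH control probe sets (log2) and the SD of log2 intensity within each array, for the WT, comm and comm/WT arrays; numbers are replicates and lines are group means. The comm arrays lie above every WT array for both controls, WT replicate 1 is lowest in all panels, and comm/WT replicates 1 and 2 are highest for the controls.

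Against WT, 1685 probe sets passed the test as higher in comm and 2144 as lower, 27.4% of those tested (12.1% higher and 15.4% lower). With 1 probe set per gene, 1291 of 10844 genes were higher and 1722 lower, or 27.8% (11.9% and 15.9%), and the median change of all genes was -0.06. Most changes were small: 66 probe sets were at least 2-fold higher and 16 at least 2-fold lower. For 19.3% of probe sets the comm arrays did not overlap the WT arrays (8.92% above, 10.4% below). The counts were 1231 higher and 1223 lower without WT replicate 1. They were 1037 and 857 with the actin difference as a covariate, an alternative chosen after the data were seen. With 1 probe set per gene, 924 genes were higher and 1009 lower without WT replicate 1. The actin covariate gave 747 and 713 genes, and a fit of comm and WT alone 685 and 647. Counts of gene lists below are to be read beside these counts and shares of all genes.

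The comm transcript itself was slightly lower in the mutant. It measured 11.73, 11.95, 11.83, 11.87 and 11.84 in the 5 WT arrays and 11.66, 11.59, 11.59 and 11.53 in the 4 comm arrays. All comm arrays lay below all WT arrays, by a change of -0.25 ± 0.05 (1.19-fold lower, limma adjusted p = 6.4e-05). The comm/WT arrays measured 11.66, 11.53, 11.59 and 11.64, overlapping comm, and comm minus comm/WT was -0.02 ± 0.05 (adjusted p = 0.86). Comm had the lowest mean of the 18 groups for this probe set, and its difference from the average of the 16 other groups was -0.28 (adjusted p = 5.9e-08). The means of those groups ran from 11.61 to 12.71, with UC2x (12.71) and UC (12.31) the highest. A mutation can leave a transcript in place, and the position of the probe set relative to any lesion is not known here, so this value does not check the genotype.

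Other parts of the Slit and Robo system were near their WT levels. The ligand sli measured 10.07, 9.68, 9.80, 9.16 and 9.71 in WT and 9.61, 9.63, 9.61 and 9.55 in comm, a change of -0.08 ± 0.10 that did not pass (adjusted p = 0.56). The receptor robo1 measured 11.58, 11.35, 11.34, 11.10 and 11.35 in WT and 11.34, 11.45, 11.36 and 11.37 in comm (0.04 ± 0.07, adjusted p = 0.73). The comm and WT arrays overlapped for both genes. Against the other 16 groups robo1 was called lower (-0.45, adjusted p = 8.2e-10), although their means ran from 11.09 to 14.54 and comm ranked near the middle. For comm2, a relative of comm that lies next to it in the gene order, the change was 0.08 ± 0.06 (adjusted p = 0.32), and with the actin covariate it passed (0.22, adjusted p = 0.0097). The heparan sulfate proteoglycan Sdc, which binds Slit, was different. It measured 11.62, 11.48, 11.47, 11.42 and 11.44 in WT and 12.10, 12.12, 11.998 and 11.97 in comm, with every comm array above every WT array (0.56 ± 0.06, 1.48-fold, adjusted p = 1e-10). Against the other 16 groups the Sdc difference was 0.04 (adjusted p = 0.72), and WT had the lowest mean of the 18 groups.

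A similar pattern was seen for a Netrin. The ligand NetB, made at the midline and in muscles, measured 10.31, 9.96, 9.98, 10.06 and 9.76 in WT and 11.13, 11.06, 11.17 and 11.17 in comm, with no overlap. The change was 1.12 ± 0.10 (2.17-fold higher, adjusted p = 4.3e-14), while comm lay at 0.03 from the mean of the other 16 groups (adjusted p = 0.88) and WT was again the lowest of the 18. The attractive receptor fra was at 10.09, 11.23, 11.02, 11.37 and 11.11 in WT, where replicate 1 stands below the rest, and at 11.14, 11.23, 11.31 and 11.07 in comm; its change of 0.22 did not pass (adjusted p = 0.21). For the repulsive receptor unc-5 the difference of -0.08 did not pass (adjusted p = 0.35). Against the average of the other 16 groups unc-5 was called lower (-0.22, adjusted p = 0.00038) and comm2 higher (0.15, adjusted p = 0.018). The former call was lost with the actin covariate (adjusted p = 0.067). That average holds the UNC5 group, where unc-5 was at 13.26, while the rest lay at 11.22 to 11.73 and comm at 11.37.

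Among 24 measured guidance ligands and receptors, 5 were called higher, 1 lower and 18 did not pass, with a median change of 0.05. Of all genes 27.8% were called (11.9% higher and 15.9% lower). Beside NetB and Sdc, the higher ones were the transmembrane semaphorin Sema1a (0.46 ± 0.11, adjusted p = 0.00071) and the receptor tyrosine phosphatases Lar (0.39) and Ptp4E (0.29), and the lower one was comm. The Lar and Ptp4E calls were lost with the actin covariate (adjusted p = 0.14 and 0.27), and without WT replicate 1 Lar was at 0.25. A second probe set of Ptp4E differed by -0.01 and did not pass. Of 13 growth cone signalling genes 3 were higher and 0 lower, namely the actin regulator ena (0.48), the kinase Pak (0.40) and the exchange factor Vav (0.30). The ena call was kept without WT replicate 1 and with the actin covariate (adjusted p = 1.3e-05 and 0.001), and those of Pak and Vav were lost in both. A second probe set of Vav did not pass against WT. When the fit held the comm and WT arrays alone, ena did not pass (adjusted p = 0.064).

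**Figure D2:**
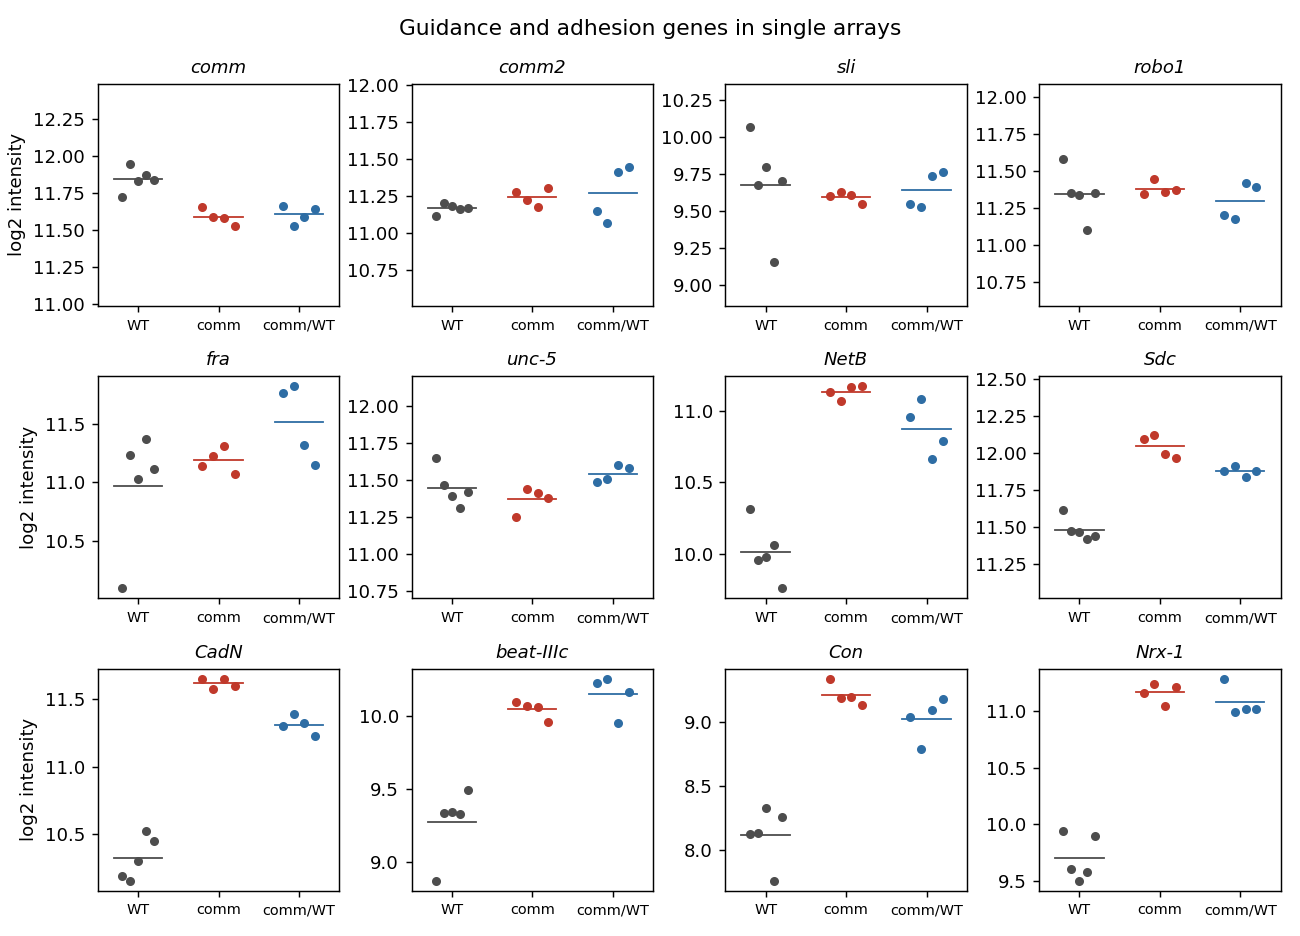
log2 intensity of 12 guidance and adhesion genes in each WT (5), comm (4) and comm/WT (4) array; points are arrays, lines are group means, and each vertical axis spans at least 1.5 log2 units. NetB, Sdc, CadN, beat-IIIc, Con and Nrx-1 are higher in every comm array than in every WT array, comm is lower in every comm array, and comm2, sli, robo1, fra and unc-5 overlap.

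Of 27 measured cell adhesion genes of neurons and muscles 12 were higher, 2 lower and 13 did not pass. Their median change was 0.23, and that of all genes -0.06, with 11.9% of all genes called higher and 15.9% lower. The neural cadherin CadN measured 10.19, 10.15, 10.30, 10.52 and 10.45 in WT and 11.65, 11.58, 11.65 and 11.60 in comm. That is 1.30 ± 0.09 (2.46-fold higher, adjusted p = 7.2e-19), with every comm array more than 1 unit above every WT array. The leucine-rich repeat adhesion gene Con measured 8.12, 8.13, 8.33, 7.76 and 8.26 in WT and 9.33, 9.18, 9.19 and 9.13 in comm (1.09 ± 0.10, adjusted p = 1.2e-13). The immunoglobulin protein beat-IIIc changed by 0.77 ± 0.10 through the probe set used, whereas a second one gave 0.04 and did not pass. The teneurin Ten-m (0.72), neuromusculin nrm (0.51) and the integrin subunits scb (0.48) and if (0.36) were higher too, and the calls of Ten-m, scb and if were lost with the actin covariate. A second probe set of Ten-m gave -0.04 and did not pass. The secreted adhesion protein Ama moved the other way, from 10.99, 11.11, 10.87, 11.04 and 10.89 in WT to 10.41, 10.35, 10.29 and 10.33 in comm (-0.63 ± 0.07, adjusted p = 1.5e-11), with no overlap. With the actin covariate 7 of the 27 were higher and 2 lower.

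Fewer of these genes differed from the other mutants and transgenics. CadN lay 0.34 above the mean of the 16 other groups (adjusted p = 0.00031) and Ama -0.21 from it (adjusted p = 0.0036). Con did not pass this test (0.10, adjusted p = 0.49), nor did beat-IIIc (0.07, adjusted p = 0.64). In the whole list 4 of 27 genes were higher and 1 lower against the other groups, where 11.4% of all probe sets were called (4.09% higher and 7.35% lower).

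Synapse genes had 8 higher, 0 lower and 13 not passing of 21, and a median of 0.00. All genes had 11.9% higher and 15.9% lower. The presynaptic adhesion gene Nrx-1 measured 9.94, 9.61, 9.50, 9.58 and 9.90 in WT and 11.16, 11.24, 11.05 and 11.21 in comm (1.46 ± 0.11, 2.75-fold, adjusted p = 7.4e-18), with no overlap. The vesicular monoamine transporter Vmat measured 10.48, 9.82, 10.34, 10.07 and 10.16 in WT and 11.29, 11.25, 11.07 and 11.25 in comm (1.04 ± 0.09, adjusted p = 3.4e-15), whereas its second probe set gave -0.12 and did not pass. Sap47 (0.58), the release factor unc-13 (0.55, lost with the actin covariate) and the dynamin gene shi (0.37) were also higher. Both Nrx-1 (0.32, adjusted p = 0.005) and Vmat (0.31, adjusted p = 0.00098) lay above the average of the other groups. The call of Nrx-1 in that test was lost with the actin covariate (adjusted p = 0.092). Without WT replicate 1 the list had 5 higher, since Syn, Csp and Liprin-alpha lost their calls, and with the actin covariate 4.

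Markers of differentiated neurons rose in 6 of 14 cases and fell in 1. The calcium-binding protein gene Cbp53E went from 7.91, 8.43, 8.36, 8.53 and 8.52 in WT to 9.94, 9.91, 9.93 and 9.92 in comm (1.57 ± 0.09, 2.97-fold, adjusted p = 1.1e-22). It also lay above the average of the other 16 groups by 0.50 ± 0.07 (adjusted p = 1.9e-07). The sodium pump subunit nrv3 (0.85), the RNA-binding protein fne (0.81) and dopa decarboxylase Ddc (0.65) were higher in every comm array than in every WT array. Tyrosine hydroxylase, ple, was lower, at 11.73, 11.87, 11.66 and 11.75 in comm against 12.21, 12.05, 12.09, 12.05 and 12.07 in WT (-0.34 ± 0.06, adjusted p = 2e-05). The pan-neuronal gene elav did not pass (0.28 ± 0.20, adjusted p = 0.29), and its WT replicate 1 value of 9.35 lies more than 1 unit above the other WT arrays. Without that array elav was higher in comm (0.65, adjusted p = 0.00057). Of 24 ion channel genes 4 were higher and 2 lower, with the calcium-activated potassium channel slo at 0.58. For 20 neuropeptide genes the counts were 4 higher and 4 lower, where all genes had 11.9% higher and 15.9% lower. The peptide gene Akh changed by -0.29 and amon, which processes peptides, by 0.33, a call lost with the actin covariate. The ion channel counts without WT replicate 1 were 3 higher and 0 lower and those of neuropeptides 3 and 1.

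Neural precursors had 5 genes higher, 0 lower and 13 not passing of 18, but 3 higher and 1 lower with the actin covariate and 2 higher when comm and WT were fitted alone. The growth regulator brat measured 11.37, 10.75, 10.67, 10.85 and 10.94 in WT and 12.18, 12.13, 12.03 and 11.94 in comm (1.16 ± 0.10, adjusted p = 1.1e-15). The asymmetric division gene insc changed by 0.66 ± 0.09 and, unlike brat (0.14, adjusted p = 0.28), it differed from the other groups (0.34, adjusted p = 0.00011). Glia had 5 higher and 0 lower of 14, where all genes had 11.9% higher and 15.9% lower. The septate junction gene Gli was at 0.52 ± 0.10 and the growth factor receptor htl at 0.43 ± 0.10, the latter lost with the actin covariate. The glial fate marker repo measured 8.60, 9.04, 8.73, 8.87 and 8.74 in WT and 8.81, 8.62, 8.77 and 8.68 in comm and did not pass (-0.08 ± 0.08, adjusted p = 0.5), but with the actin covariate it was called lower (-0.31, adjusted p = 0.0075). Without WT replicate 1 there were 3 glial genes higher, and with the actin covariate 2 higher and 1 lower.

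CNS midline markers had 3 higher (11.9% of all genes), 0 lower (15.9%) and 6 not passing of 9, with a median of 0.17. They were the POU factor vvl (0.38 ± 0.07, adjusted p = 5.2e-05), the receptor Egfr (0.35, lost with the actin covariate) and its antagonist sty (0.20), none specific to the midline. A second probe set of Egfr gave 0.10 and did not pass. The midline glial surface protein wrapper measured 9.18, 9.54, 9.43, 9.69 and 9.55 in WT and 9.56, 9.57, 9.52 and 9.44 in comm (0.04 ± 0.06, adjusted p = 0.62).

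Muscle genes were higher in 10 of 17 cases and lower in 0, with a median of 0.24. For all genes the shares were 11.9% higher and 15.9% lower. The thick filament connecting protein bt measured 9.82, 11.63, 11.30, 11.47 and 11.32 in WT and 12.27, 12.20, 12.22 and 11.95 in comm (1.05 ± 0.18, 2.07-fold, adjusted p = 7e-06). WT replicate 1 was lower than the other WT arrays by more than 1 unit, and without it the change was 0.73 (adjusted p = 0.00015). Troponin T, up, measured 13.40, 12.70, 12.60, 12.95 and 13.43 in WT and 13.87, 13.81, 13.68 and 13.69 in comm (0.74 ± 0.12, adjusted p = 5.4e-07). The titin-related gene sls changed by 0.55 ± 0.09, the actin crosslinker Actn by 0.47 and the Z-disc protein Mlp84B by 0.41, a call lost with the actin covariate (adjusted p = 0.057). Of the 3 other sls probe sets, 1 gave -0.05 and did not pass. Among the genes named here, sls differed from the other 16 groups (0.37, adjusted p = 2.8e-05) and bt, up, Actn and Mlp84B did not pass that test. With the actin covariate 6 muscle genes were higher and 1 lower, and 5 were higher when comm and WT were fitted alone.

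**Figure D3:**
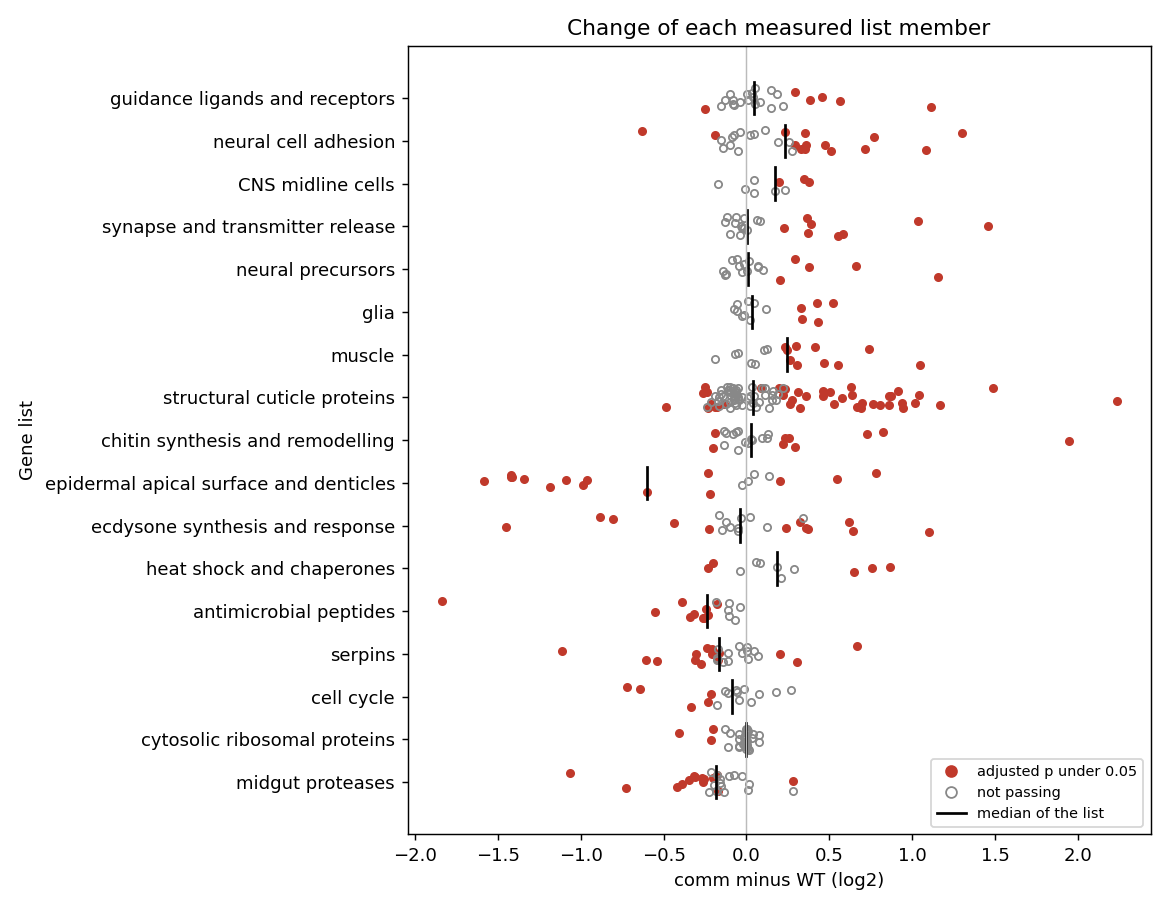
Change in comm against WT (log2, horizontal axis) of each measured member of 17 gene lists; filled points passed the adjusted p threshold of 0.05, open points did not, and black bars are list medians. Muscle and neural adhesion genes lie mostly to the right, epidermal apical genes, antimicrobial peptides and serpins to the left, and ribosomal proteins near 0.

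Cuticle genes included some of the highest changes. Of 92 structural cuticle protein genes 32 were higher, 9 lower and 51 did not pass, with a median of 0.04. Of all genes 11.9% were higher and 15.9% lower. Cpr67Fa2, which has the chitin-binding domain of its family, measured 7.68, 9.29, 9.05, 9.04 and 8.996 in WT and 11.04, 11.05, 11.18 and 10.91 in comm. The change was 2.24 ± 0.18 (4.71-fold higher, adjusted p = 4.9e-17), and 1.95 without WT replicate 1. The Tweedle family, structural proteins of soft cuticle, had 10 of 20 genes higher and 0 lower, led by TwdlQ at 11.62, 12.44, 12.28, 12.41 and 12.19 in WT and 13.78, 13.67, 13.64 and 13.63 in comm (1.49 ± 0.09, adjusted p = 8.5e-22). TwdlW (1.17), Cpr66D (1.04), Cpr64Ab (1.02) and Cpr92F (0.92) were likewise above WT in every comm array. Lcp65Af was the member that fell most, from 10.07, 10.30, 10.25, 10.15 and 9.88 in WT to 9.95, 9.45, 9.51 and 9.68 in comm (-0.49 ± 0.10, adjusted p = 0.00011), with an overlap of 1 comm array. Without WT replicate 1 the counts were 29 higher and 3 lower.

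Against those 16 other groups 16 of the 92 were higher and 8 lower, where 478 of all 10844 genes were higher and 788 lower. The share of lower cuticle genes was thus near that of all genes. TwdlQ lay 0.61 ± 0.07 above their average (adjusted p = 5.2e-10) and Cpr67Fa2 0.73 ± 0.14 (adjusted p = 4.2e-05, 0.057 with the actin covariate). Lcp65Af was at -1.13 ± 0.08 from that average (adjusted p = 8.9e-20) and had its lowest mean of 18 groups in comm. For TwdlQ the robo2 mean (13.86) was above that of comm (13.68). For Cpr67Fa2 (11.05 in comm) slit.robo (11.80), UR (11.43), FRM (11.38), robo2 (11.37) and comm/WT (11.18) had higher means.

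Chitin genes had 7 higher, 2 lower and 14 not passing of 23, where all genes had 11.9% higher and 15.9% lower. The chitinase Cht6 measured 10.77, 11.37, 11.22, 11.41 and 11.16 in WT and 13.16, 13.16, 13.13 and 13.08 in comm (1.95 ± 0.11, 3.85-fold, adjusted p = 1.6e-23), but its other probe sets gave -0.02 and 0.08 and did not pass. The chitin-binding proteins Gasp (0.82) and obst-E (0.73) were higher, and the chitin synthase kkv was lower (-0.20, adjusted p = 0.034), a call lost without WT replicate 1 (adjusted p = 0.053). The transporter gene snu, needed for the cuticle barrier, measured 11.69, 12.99, 12.94, 12.90 and 12.82 in WT and 13.99, 13.86, 13.86 and 13.85 in comm (1.22 ± 0.12, adjusted p = 2.9e-13).

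Most genes listed for the epidermal apical surface fell. The list holds 19 measured genes, of which 12 were lower, 3 higher and 4 did not pass, with a median of -0.60. It includes 8 genes (neo, flz, dsx-c73A, CG7173, CG12920, CG14960, CG9184 and CG6026) whose low values in these data were already known when it was drawn up, so its count is no independent evidence of direction. The zona pellucida domain gene neo, for apical matrix of denticles, measured 9.97, 10.03, 9.96, 10.11 and 9.85 in WT and 8.90, 8.84, 8.94 and 8.89 in comm (-1.09 ± 0.10, adjusted p = 1.2e-14). The related zona pellucida domain gene mey measured 10.65, 10.64, 10.41, 10.46 and 10.63 in WT and 9.59, 9.61, 9.47 and 9.62 in comm (-0.99 ± 0.09, adjusted p = 5.1e-14), and dyl changed by -0.60 ± 0.07. None of the 3 overlapped with WT, and their differences from the average of the other 16 groups were -0.72, -0.59 and -0.24, all called lower. Some of those groups had still lower means. For neo (8.89 in comm) they were robo (8.74), comm/WT (8.79), UC (8.81) and robo2 (8.82). For mey (9.57 in comm) they were robo2 (9.27), UC (9.35) and slit.robo (9.54). The serine protease gene flz measured 11.19, 12.004, 11.86, 11.72 and 11.81 in WT and 10.85, 10.71, 10.70 and 10.75 in comm (-0.96 ± 0.12, adjusted p = 9.9e-10). The higher members zye (0.78), pio (0.54) and f (0.20), like dyl chosen for naming after their values were seen, are a pair of zona pellucida domain genes and an actin bundling gene.

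CG7173, which has no gene name beyond its number, measured 13.52, 13.69, 13.38, 13.38 and 13.30 in WT and 11.93, 11.85, 11.70 and 12.004 in comm (-1.58 ± 0.08, 3.00-fold lower, adjusted p = 5.9e-27). Its difference from the average of the other groups was -0.93 ± 0.06 (adjusted p = 1.3e-20), although UC (11.33) and robo2 (11.47) had lower means than comm (11.87). CG14960 (-1.42 ± 0.09), CG9184 (-1.41 ± 0.08) and CG6026 (-1.34 ± 0.08) behaved alike, with comm below WT in every array. For the epidermal list as a whole, 11 genes were lower and 2 higher against the other 16 groups. The counts against WT were 12 lower and 3 higher without WT replicate 1, and 10 and 2 with the actin covariate.

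Ecdysone genes moved both ways, with 7 higher, 5 lower and 10 not passing of 22. The shares of all genes were 11.9% higher and 15.9% lower. ImpL1, an ecdysone-inducible gene of the epidermis, measured 13.46, 13.53, 13.28, 13.47 and 13.28 in WT and 12.14, 11.76, 12.01 and 11.92 in comm (-1.45 ± 0.12, 2.73-fold lower, adjusted p = 1.2e-15). ImpE2 (-0.89 ± 0.08) and ImpE1 (-0.80 ± 0.09) fell with it, and Hr3, an early-late nuclear receptor, changed by -0.44 ± 0.08 through the probe set used, a second giving -0.13 that did not pass. The nuclear receptor ftz-f1, which follows the ecdysone pulse, went the other way, from 10.17, 11.32, 11.40, 11.44 and 11.39 in WT to 12.18, 12.31, 12.37 and 12.13 in comm (1.10 ± 0.14, adjusted p = 4.1e-09). Cyp18a1, the enzyme that inactivates ecdysone, changed by 0.64 ± 0.13. WT replicate 1 was the lowest WT array for ftz-f1 and Cyp18a1, and without it the changes were 0.86 (adjusted p = 3e-08) and 0.42 (adjusted p = 0.0015). When comm and WT were fitted alone, Cyp18a1 did not pass (adjusted p = 0.072). ImpL1 (-0.56), ImpE2 (-0.61), ImpE1 (-0.50) and Hr3 (-0.30) also lay below the average of the other groups. The nuclear receptor ftz-f1 did not pass that test (0.21, adjusted p = 0.24). Some groups were lower than comm, however. For ImpL1 (11.96 in comm) they were UC (10.16), robo2 (10.61), robo (11.42) and slit.robo (11.67). For ImpE2 (13.40 in comm) they were UC (13.06) and robo2 (13.28).

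Immune effectors and immune signalling genes gave different counts. Of 16 antimicrobial peptide genes 10 were lower, 0 higher and 6 did not pass, where 15.9% of all genes were lower and 11.9% higher. The drosomycin-like gene Drsl5 had the lowest change of all named genes. It measured 10.77, 10.58, 10.59, 10.69 and 10.49 in WT and 8.81, 8.84, 8.74 and 8.73 in comm with no overlap (-1.84 ± 0.10, 3.58-fold lower, adjusted p = 1.6e-23). Its mean of 8.78 ± 0.05 (SD, n = 4) was the lowest of the 18 groups, the means of the 16 others ranging from 10.30 to 14.11. Its difference from those groups was -3.40 ± 0.08 (10.5-fold lower, adjusted p = 1.4e-46), the largest difference of any named gene in that test. BomS2 (-0.55), BomBc2 (-0.39) and BomS4 (-0.32), short peptides of the Toll response with close relatives that may share signal, were lower than WT in every comm array. None of the 3 passed the test against the other groups, with adjusted p of 0.24, 0.073 and 0.99. With the actin covariate 5 of the 16 were lower (713 of all 10844 genes), and 4 when comm and WT were fitted alone (647 of all 10844).

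Signalling genes of the same pathways had 6 higher, 0 lower and 11 not passing of 17. The NF-kappaB gene dl measured 9.13, 9.24, 9.19, 9.45 and 8.96 in WT and 9.95, 9.87, 10.005 and 10.03 in comm (0.77 ± 0.09, adjusted p = 3.4e-11). The Toll ligand spz (0.62), Rel (0.40, lost with the actin covariate) and Dif (0.40) were higher as well, and none of these 4 passed the test against the other groups. The spz change was 0.41 without WT replicate 1, and when comm and WT were fitted alone it did not pass (adjusted p = 0.076). With the actin covariate 3 genes of the list were higher. Serpins, inhibitors of serine proteases, were lower for 11 of 27 and higher for 3, where 15.9% of all genes were lower and 11.9% higher. Spn43Aa measured 13.35, 13.47, 13.26, 13.31 and 13.12 in WT and 12.35, 12.01, 12.16 and 12.24 in comm (-1.11 ± 0.10, adjusted p = 2e-15). It lay below the average of the other groups too (-0.70, adjusted p = 1.5e-11).

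Of 11 measured heat shock and chaperone genes 3 were higher and 2 lower, where 11.9% of all genes were higher and 15.9% lower. Hsp68 measured 8.90, 8.63, 8.73, 8.73 and 8.76 in WT and 9.67, 9.62, 9.54 and 9.63 in comm (0.87 ± 0.18, adjusted p = 0.00011), Hsp26 changed by 0.76 ± 0.15 and the cochaperone DnaJ-1 by 0.65 ± 0.07, all without overlap. The constitutive Hsc70-3 and Hsc70-1 were lower by small steps (-0.20 and -0.23), which did not pass with the actin covariate (adjusted p = 0.72 and 0.18). The Hsc70-3 call was also lost without WT replicate 1 (adjusted p = 0.088).

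Of 16 cell cycle genes 5 were lower, 0 higher and 11 did not pass, where 15.9% of all genes were lower and 11.9% higher. Cyclin B3 measured 10.21, 10.73, 10.58, 10.75 and 10.54 in WT and 9.85, 9.79, 9.95 and 9.79 in comm (-0.72 ± 0.10, adjusted p = 7.3e-09). Cyclin B, CycB, measured 11.85, 11.83, 11.71, 11.82 and 11.74 in WT and 11.15, 11.06, 11.20 and 11.18 in comm (-0.64 ± 0.06, 1.56-fold lower, adjusted p = 4.4e-13). Both lay below the average of the other groups by a similar amount (-0.74, adjusted p = 1.6e-12, and -0.57, adjusted p = 4.6e-15). The securin pim (-0.34), the kinesin Klp61F (-0.23) and aurB (-0.21) made up the count, and these 3 did not pass with the actin covariate, nor aurB without WT replicate 1. Of 16 DNA replication genes 5 were lower and 0 higher, with Mcm6 at -0.23 ± 0.06, and without WT replicate 1 only 1 was lower.

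Few genes of the basal machinery were called. Cytosolic ribosomal proteins had 0 higher, 3 lower and 34 not passing of 37, mitochondrial ribosomal proteins 3 and 2 of 64, the proteasome 0 and 3 of 39, and oxidative phosphorylation 3 and 4 of 70. Their medians lay between -0.09 and 0.01. With the array SD as covariate 21 mitochondrial ribosomal, 17 proteasome and 11 oxidative phosphorylation genes were called lower, and with quantile normalization 8, 7 and 16, so these counts depend on the setting. Embryo patterning genes had 1 higher and 2 lower of 18, Hox genes 1 and 0 of 4 and mRNA decay genes 2 and 2 of 16. Trithorax genes had 2 and 1 of 11, Polycomb genes 3 and 1 of 9, and trachea 3 and 0 of 8. All genes had 11.9% higher and 15.9% lower, so higher calls of Polycomb and trachea genes stood above that share, in small lists. With the actin covariate 1 Polycomb gene and 2 trachea genes were higher.

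For digestive proteases of the midgut the calls turned on WT replicate 1. Of 29 genes 13 were called lower and 1 higher, where 15.9% of all genes were lower and 11.9% higher. Jon99Fi measured 10.93, 7.17, 7.25, 7.47 and 7.24 in WT, where replicate 1 stands more than 3 units above the rest, and 6.99, 6.83, 6.98 and 6.98 in comm (-1.07 ± 0.30, adjusted p = 0.005). Jon99Fii, a near copy whose signal may be shared, measured 13.79, 10.84, 10.92, 10.83 and 10.92 in WT and 10.63, 10.79, 10.81 and 10.70 in comm. Without that array the changes were -0.34 (adjusted p = 0.099) and -0.15 (adjusted p = 0.26), and the list had 1 gene lower and 2 higher. The exception was Jon65Aiii, which was higher in every comm array (0.28 ± 0.06, adjusted p = 0.0005).

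**Figure D4:**
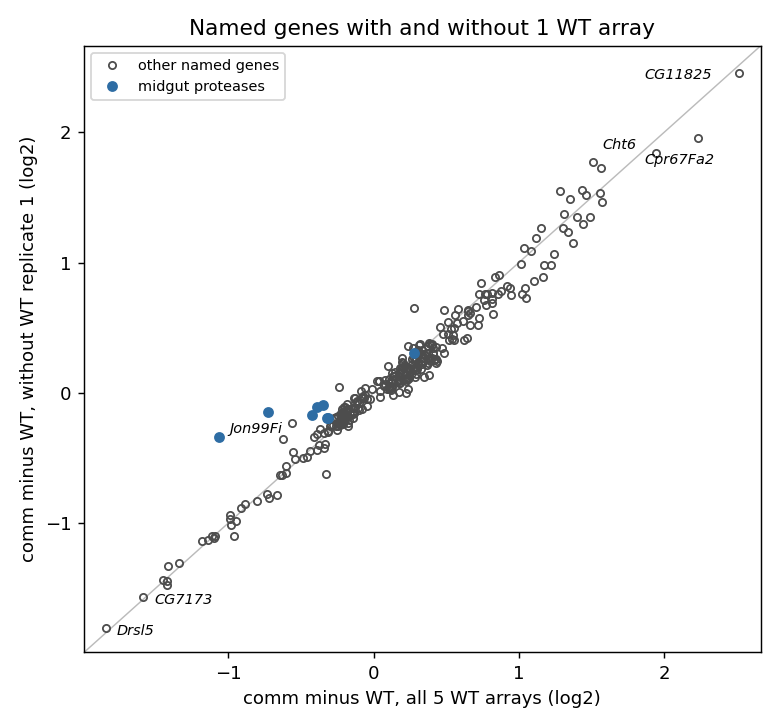
Change in comm against WT (log2) of the named genes with all 5 WT arrays (horizontal axis) and without WT replicate 1 (vertical axis); the line marks equal values. Most genes lie close to the line, and the midgut proteases, with Jon99Fi at -1.07 and -0.34, move towards 0.

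Genes of the fuel stores were mixed, with 7 higher and 3 lower of 16, beside 11.9% higher and 15.9% lower of all genes. Pepck1, for gluconeogenesis, measured 11.89, 12.30, 12.02, 12.10 and 12.09 in WT and 12.89, 12.86, 12.93 and 12.91 in comm (0.81 ± 0.08, adjusted p = 8.3e-14), and the hexokinase Hex-A (0.71), glycerol-3-phosphate dehydrogenase Gpdh1 (0.51) and the lipase bmm (0.39) were higher. Lipid droplet proteins fell. Lsd-1 measured 9.55, 9.78, 9.69, 9.84 and 9.58 in WT and 9.29, 9.27, 9.09 and 9.28 in comm (-0.46 ± 0.06, adjusted p = 9.6e-09), and Lsd-2 changed by -0.38 ± 0.08, a call lost with the actin covariate (adjusted p = 0.12). The lipid droplet genes also lay below the average of the other groups (-0.42 and -0.44), and Pepck1 did not pass that test (-0.01, adjusted p = 0.93). Collagen-like Mp was the highest of the hemocyte and basement membrane list, at 8.36, 8.49, 8.35, 8.51 and 8.57 in WT and 9.96, 10.07, 10.11 and 9.93 in comm (1.56 ± 0.10), though its other probe sets gave -0.12 and 0.14 and did not pass. Of that list 6 of 20 were higher, and 2 without WT replicate 1 or with the actin covariate. NimC1, a surface receptor of hemocytes, was lower (-0.61 ± 0.08, adjusted p = 1.4e-09). Metal handling genes had 2 higher and 1 lower of 12, with the metallothionein MtnA at 0.34, lost with the actin covariate. Of 16 germ line and maternal genes 2 were higher and 4 lower, with osk at -0.39 ± 0.08, bcd at -0.37 and swa at -0.66. A second probe set of swa gave -0.05 and did not pass, and bcd did not pass when comm and WT were fitted alone (adjusted p = 0.056).

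The highest single change was that of CG11825, at 7.76, 7.99, 8.03, 8.05 and 8.19 in WT and 10.61, 10.52, 10.46 and 10.48 in comm (2.51 ± 0.12, 5.71-fold, adjusted p = 5.3e-28). It did not pass the test against the other 16 groups (0.25, adjusted p = 0.063) and was lower in comm than in comm/WT (-0.80, adjusted p = 1.2e-06). The decapping enzyme DCP2 measured 9.69, 8.93, 8.73, 8.74 and 9.25 in WT and 10.60, 10.64, 10.67 and 10.64 in comm (1.57 ± 0.16, adjusted p = 5.1e-13), and did not pass against the other groups (0.12, adjusted p = 0.63). The histone methyltransferase gene trx measured 10.73, 9.48, 9.34, 9.38 and 9.54 in WT and 11.22, 11.21, 11.14 and 11.24 in comm (1.51 ± 0.15, adjusted p = 5.6e-13). It stood above the average of the other groups by 0.60 ± 0.12 (adjusted p = 7.1e-05). Its WT replicate 1 was more than 1 unit above the other WT arrays. The splicing regulator Rbfox1 (1.40 ± 0.11), the calcium sensor Frq1 (1.35 ± 0.10), the RNA-binding protein Hrb27C (1.34 ± 0.11), RhoGAP19D (1.31), kmr (1.43), aqz (1.28), EAChm (1.24), CG15615 (1.44) and CG11147 (1.37) complete the 20 highest. The 2 other probe sets of kmr gave -0.03 and -0.10 and did not pass. For 19 of the 20 WT had the lowest mean of the 18 groups, Cpr67Fa2 being the exception, and comm ranked from 3 to 17 among them. All 20 kept their call without WT replicate 1 and with the actin covariate.

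At the low end, CG12920 (-1.42), the ectodermal gene ect (-1.09), the sulfotransferase St1 (-1.14), dsx-c73A (-1.18), CG14110 (-0.99), CG17672 (-0.98), CG42331 (-0.95) and the mevalonate pathway gene Mvd (-0.91) complete the 20 lowest. Comm had the lowest mean of the 18 groups for 1 of them, Drsl5. Of these 20, Jon99Fi alone lost its call without WT replicate 1 or with the actin covariate.

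A set of genes had levels in comm that differed from the average of the other mutants and transgenics. Against the 16 other groups 571 probe sets were called higher and 1027 lower, 1 and 10 of them by at least 2-fold. TrissinR, the receptor of the peptide trissin, measured 12.74, 12.78, 12.73 and 12.72 in comm and 11.49, 11.68, 11.83, 12.30 and 12.05 in WT. It lay 0.84 ± 0.10 above the average of the other groups (adjusted p = 3e-09) and 0.83 ± 0.14 above comm/WT (adjusted p = 1.2e-05). Comm had the highest mean of the 18 (12.74), followed by robo12 (12.54), robo (12.46) and UC (12.14). Its other probe sets gave -0.02 to -0.06 against WT, so the value rests on 1 probe set. CHKov1 measured 10.92, 11.05, 10.83 and 10.91 in comm and 9.73, 10.32, 10.10, 10.16 and 10.26 in WT, and was higher than the other groups (0.72, adjusted p = 6.2e-16) and than comm/WT (0.55, adjusted p = 4.3e-07).

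Other genes were high in comm and in comm/WT. The glucuronosyltransferase gene Ugt37A2 measured 7.44, 7.62, 7.63 and 7.55 in comm and 7.54, 7.57, 7.28 and 7.33 in comm/WT, against 6.92, 6.69, 6.63, 6.57 and 6.80 in WT. The other 15 groups had means of at most 6.88. Such levels are low on these arrays and may be near background. A Ptp4E probe set with a mean of 6.82 over the 16 groups lay at percentile 4.81 of all probe sets. The signal recognition particle receptor gene SrpRalpha measured 12.61, 12.43, 12.49 and 12.42 in comm and 13.12, 13.07, 12.74 and 12.66 in comm/WT, against 11.63, 11.74, 11.60, 11.89 and 11.69 in WT. These are the highest means of the 18 groups, but a second probe set of SrpRalpha was lower in comm than in WT (-0.29, adjusted p = 0.0039). Sirup, which helps to assemble succinate dehydrogenase, measured 11.12, 10.89, 10.96 and 10.98 in comm and 11.21, 11.03, 10.88 and 10.99 in comm/WT, against 9.88, 10.12, 9.99, 9.996 and 9.88 in WT. The slit.robo mean of Sirup (10.83) was near those of comm (10.99) and comm/WT (11.03), and the remaining groups lay at 9.94 to 10.44. Cyp12d1-d, a cytochrome P450 gene (0.76), and kek5, a transmembrane protein with leucine-rich repeats (0.62), were above the average of the other groups. They did not pass against comm/WT (-0.05 and 0.06). The UNC5 mean of Cyp12d1-d (8.33) was like that of comm (8.28), and the UC2x mean of kek5 (10.50) was above that of comm (10.41).

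**Figure D5:**
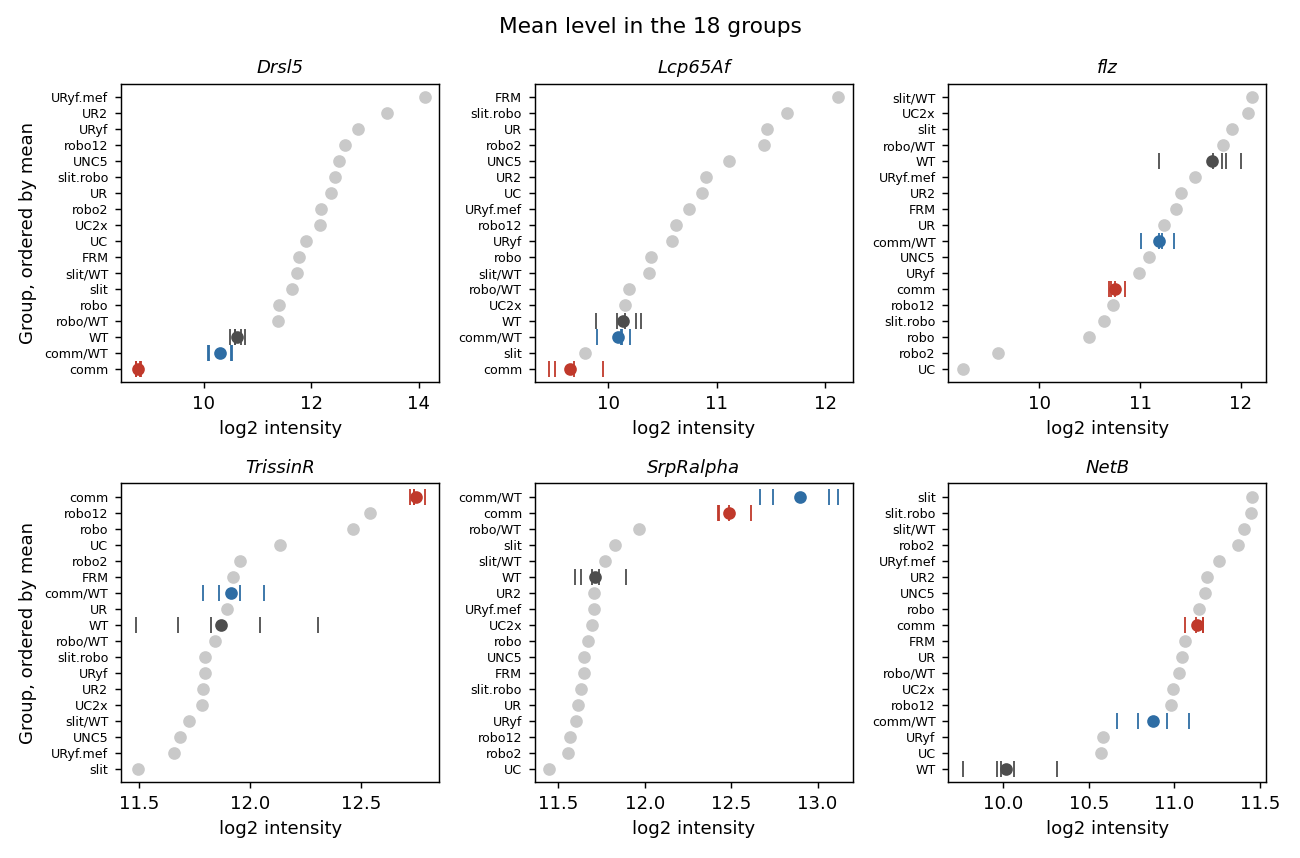
Mean log2 intensity (points) of 6 genes in the 18 groups, ordered by mean; ticks are single arrays of comm (red), WT (dark grey) and comm/WT (blue). Comm has the lowest mean for Drsl5 and Lcp65Af and the highest for TrissinR, lies next to comm/WT at the top for SrpRalpha, and lies within the range of the other groups for flz and NetB, where WT is lowest for NetB.

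Low levels against the other groups could go with or without a change against WT. CG34166 measured 10.34, 10.13, 10.04 and 9.97 in comm and 9.94, 10.46, 10.23, 10.29 and 9.92 in WT. The change did not pass (-0.05 ± 0.10, adjusted p = 0.75) unless the actin covariate was used (-0.32, adjusted p = 0.032). The comm/WT mean (10.33) was near those of comm (10.12) and WT (10.17), and the remaining groups lay at 10.90 to 12.95. From the average of the 16 other groups comm was at -1.49 ± 0.08 (adjusted p = 1.8e-25). The zinc transporter ZnT35C was likewise at 0.11 against WT and at -0.85 against the average of the others. The mucin Muc55B (-1.15), CG7465 (-1.28) and the microtubule-associated protein Map205 (-0.93) were lower against the average of the others and against WT (-0.63, -0.56 and -0.74). The slit means of Muc55B (11.33) and CG7465 (10.94) and the robo mean of CG7465 (11.05) were below those of comm (11.76 and 11.21). Without WT replicate 1 the changes of Muc55B and CG7465 against WT were -0.35 and -0.23, and neither passed when comm and WT were fitted alone (adjusted p = 0.12 and 0.23). The call of CG7465 was also lost with the actin covariate (adjusted p = 0.1). Uhg1, a host of small nucleolar RNAs, measured 8.71, 8.73, 8.68 and 8.50 in comm, 7.82, 9.30, 9.08, 9.58 and 9.15 in WT and 9.86, 9.92, 9.61 and 9.36 in comm/WT. It was above the average of the 16 other groups (0.88, adjusted p = 2.8e-09). The means of comm/WT (9.69) and URyf.mef (9.24) were nonetheless higher than that of comm (8.65). Uhg1 was below comm/WT (-1.03, adjusted p = 2.8e-07) and did not pass against WT (adjusted p = 0.071). Without WT replicate 1 it was called lower than WT (-0.62, adjusted p = 1.2e-06).

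Comm was last set against comm/WT, a contrast that holds no WT array. There 1329 probe sets were called higher and 1719 lower, 21.8% of those tested (9.52% and 12.3%), but the count fell to 287 and 519 without comm/WT replicates 1 and 2. Drsl5 was the lowest, with comm/WT at 10.07, 10.10, 10.51 and 10.53 (-1.52 ± 0.11, adjusted p = 1e-17), and without both arrays the difference was -1.74 (adjusted p = 1.9e-16). The nuclear receptor Hr4 was the highest. It measured 10.31, 10.29, 10.41 and 10.35 in comm and 8.71, 8.74, 9.32 and 9.16 in comm/WT (1.36 ± 0.12, adjusted p = 8.8e-14), and 10.33, 10.19, 10.10, 9.88 and 10.59 in WT, which the comm arrays overlapped. A second probe set of Hr4 gave 0.13 against comm/WT and did not pass (adjusted p = 0.27). The chitin deacetylase Cda4 (0.83), sls (0.79) and CG15731 (0.89) were higher in comm, and the last did not pass without both arrays (0.37, adjusted p = 0.11). The 3 other probe sets of sls did not pass against comm/WT. The poly(A) binding protein gene Pabp2 (-1.09 ± 0.12) and Hsp68 (-1.05 ± 0.19) were lower in comm than in comm/WT, which measured 10.78, 10.80, 10.48 and 10.58 for Hsp68. A second Pabp2 probe set gave -0.10 and did not pass. Hsp26 (-0.96) and DnaJ-1 (-0.63) were lower too, and these stress genes kept their calls without both arrays. CG7173 (-0.82, adjusted p = 7.1e-12), ImpL1 (-0.86, adjusted p = 7.1e-07) and Lsd-1 (-0.43, adjusted p = 6.3e-07) were lower in comm than in comm/WT, and neo (0.10, adjusted p = 0.52) and CycB (0.07, adjusted p = 0.51) did not pass. Lsd-2 went the other way and was higher in comm than in comm/WT (0.69, adjusted p = 1.2e-08), also without both arrays (0.55, adjusted p = 0.00028).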

How the data were processed

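RNA of stage 15 embryos was hybridised to 78 Affymetrix arrays, and 6 ug of total RNA per sample was labelled with biotin, per the labels. The deposited intensity values are linear, and the submitters' processing notes name RMA, with no version given. Array medians lay between 811.1 and 857.7, and no pair of arrays was identical. The files give no detection calls, so presence of a transcript, and of the defining markers of a cell type, cannot be judged.

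Here log2 was taken of each value and 44 control probe sets were left out, leaving 13966 of 14010. Names came from the platform annotation, updated through Entrez identifiers to RefSeq (Release 6 plus ISO1 MT). Of the tested probe sets 12443 had 1 name, 327 several and 1196 none, and a gene with several probe sets is represented by the one with the highest mean. Linear models were fitted with limma 3.58.1 in R 4.3.3 to the 18 group means, with 60 residual degrees of freedom, and moderated p-values were adjusted by Benjamini-Hochberg over all tested probe sets. The procedure was tested on simulated data. The members and gene lists (36 lists, 825 genes measured) were chosen with earlier results of these data known. Named genes were the 8 guidance genes, the 20 highest and 20 lowest non-overlapping changes against WT, the 10 at each end against the other groups, the 5 at each end against comm/WT and up to 8 genes of each list. Alternatives were quantile normalization, a filter on dim probe sets, fewer groups in the fit, a replicate block, array weights, covariates for array quality, and leaving out arrays. The number of arrays limits the precision.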

Additional observations from a re-analysis of the deposited data

Results flagged for a closer look

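Within the WT or comm arrays 24 of 146 groups of values held an array far from the others. The rule has a nominal rate of about 1 in 20. That rate does not apply here, since many of the genes were chosen by their values and all share the same arrays. Of the 24 flagged groups, 15 concerned WT replicate 1. It was the lowest WT array for fra (10.09), Cpr67Fa2 (7.68), Cbp53E (7.91), CG11147 (10.15), snu (11.69), Uhg1 (7.82), CG15731 (12.86), Cda4 (14.03) and Pabp2 (8.80). It was the highest for trx (10.73), Jon99Fi (10.93), CG7465 (13.10), Muc55B (13.47), Jon99Fii (13.79) and Cpr47Eg (14.23). The spread over the other 4 WT arrays was 7.17 to 7.47 for Jon99Fi and 10.83 to 10.92 for Jon99Fii. WT replicate 2 stood apart for ect (11.96).

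Among the comm arrays, replicate 1 stood apart for CG11147 (12.49), snu (13.99), ImpE2 (13.53), Muc55B (11.60) and sls (11.84). Replicate 2 was the lowest for Jon99Fi (6.83), replicate 3 for EAChm (11.36) and replicate 4 for Map205 (7.73).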

How the results depend on the processing

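In comm against WT, 1403 probe sets were lower without dim probe sets, 918 higher and 797 lower when the fit held the comm and WT arrays alone, and 1037 higher and 857 lower with the actin covariate, which was chosen after the data were seen. Calls that were higher made up 44.0% in the main setting and 54.8% with that covariate. Leaving out single arrays gave 1231 to 1915 higher and 1223 to 2503 lower, both minima without WT replicate 1, where 2291 of the main calls were shared. Against comm/WT, the GAPDH covariate gave 667 higher and 980 lower, leaving out both arrays of high 3'-to-5' difference (also chosen after the data were seen) gave 287 and 519, and single arrays gave 776 to 1544 and 1150 to 1922. Against the other 16 groups, array weights gave 1689 higher and 2158 lower, the array SD covariate 1103 higher, and single arrays 312 to 662 and 674 to 1121. The cause of these shifts was not tested. Of 324 named genes, 57 lost their call against WT without WT replicate 1, 82 when comm and WT were fitted alone and 85 with the actin covariate, and nrv2 changed sign with the latter (-0.0342, adjusted p = 0.93). The replicate block gave 3659 calls against WT (3829 without it), 3090 against comm/WT and 1672 against the other groups. Replicate numbers did not pair the arrays, since deviations of same-numbered comm and WT arrays correlated at -0.252 to 0.033 and 0 of 4 comm arrays correlated best with their own number. Few arrays per group, unknown alleles and collections, and whole-embryo RNA limit what the values can show.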

Other observations

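Genes of chromosome 4 are described here because their values were seen to differ, so no test was made. Of 57 measured genes 23 were higher and 3 lower in comm against WT, or 40.35% higher, against 11.91% of all genes, with a median change of 0.22. Without WT replicate 1 the counts were 15 and 3 (26.32%, against 8.521% of all genes), and with the actin covariate 8 and 2 (14.04%, against 6.889%). Against the other 16 groups 1 was higher and 2 were lower (1.754% higher, against 4.408% of all genes), and with the actin covariate 0 and 6.

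Of the 20 measured genes nearest to comm in the RefSeq gene order, 10 on each side, 3 were higher against WT and 0 lower, where 11.9% of all genes were called higher, so the count is near that share. They were the decapping enzyme DCP2 (1.57), the glycosyltransferase Pgant8 (0.53) and the kinase sff (0.45). Against the average of the other 16 groups 3 were higher and 0 lower, where 4.408% of all genes were higher. Those 3 were sff (0.36), Pgant8 (0.25) and comm2 (0.15). These genes were looked at after values were seen, and the difference from that share was not tested.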
